A study of Mus musculus with 23 samples.

Results

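Glycolysis and hypoxia response genes were followed through 4 stages of mouse blood cell development, each with and without induction of the leukaemic fusion protein RUNX1-ETO. The group held 35 genes, chosen by name from the glycolytic pathway, the handling of pyruvate and lactate, and the response to low oxygen, out of 20145 genes that the probes of the array could be matched to. Each gene was read from the probe with the highest mean where it had several. All 35 members passed the filter on dim genes, as did 15203 genes in all.

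RNA from cells differentiated from a single mouse embryonic stem (ES) cell line was hybridised to Agilent arrays in 1 colour. The line, made in A2lox ES cells and labelled C57BL/6, carries a human RUNX1-ETO gene with an HA tag under a tetracycline-responsive promoter and retains wild-type RUNX1, in the uninduced controls as well. Haemogenic endothelium (HE) cells were sorted as KIT+ Tie2+ CD41-, HE2 cells as KIT+ Tie2+ CD41+ and progenitors as KIT+ Tie2- CD41+. In the induced groups of these early stages, blast cultures received 0.1 μg per ml doxycycline (Dox) from day 1, and cells with and without Dox were sorted on day 2. Myeloid progenitors were CD41+ KIT+ cells grown on in expansion medium with cytokines, with Dox from day 2 in the induced group, for 12 h, and harvest on day 3. Every group had 3 arrays, other than uninduced and induced progenitors with 2 each. One further uninduced progenitor array, whose labels disagree on whether it is a technical replicate, was normalized with the rest but not fitted. Induced myeloid progenitor array 3 has the opposite conflict, biological by title and technical by source, and was kept in the fit, so that this group may hold fewer than 3 independent samples. Arrays of Dox-treated cells without the fusion gene were not analysed here, so that an effect of Dox itself cannot be told apart from that of RUNX1-ETO. The arrays of a group come from the same line, and p-values measure only the spread between them.

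Values are log2 intensities after background correction and quantile normalization. They compare arrays for a given probe and do not rank genes against each other. A gene was called changed at an unadjusted P of at most 0.001 with at least a 2-fold change (limma), and adjusted P values (Benjamini-Hochberg) were computed over all 15203 genes.

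Per array, 48.8 to 78.4% of spots were well above background. The arrays lay on 3 slides: slides 1 and 2 held the early stages, and slide 3, scanned on another day, held all 6 myeloid progenitor arrays, induced progenitor array 2 and the additional array. Runx1t1, the mouse gene of ETO, was higher with Dox by 1.24 in HE (SE 0.34, adjusted P = 0.0155, short of the threshold), and by 2.08, 3.97 and 2.06 on the log2 scale in the later stages, in their order, and since the transgene is human, its probe is only a partial check of induction. Tek, which encodes Tie2, had a mean log2 intensity of 11.95 in uninduced HE and 8.66 in uninduced progenitors, in the order of the sort. Itga2b, which encodes CD41, was nevertheless well above background on all 3 uninduced HE arrays, at 9.49 to 11.46, next to 11.19 to 12.51 in uninduced HE2, so that its RNA separated these CD41- and CD41+ cells only weakly. Mpo, a gene of myeloid cells, had means of 9.83 in uninduced HE and 14.97 in uninduced progenitors. In uninduced myeloid progenitors its mean was 13.11, below that in progenitors. Embryonic globin genes were far higher there than in uninduced progenitors, with means of 18.27 against 13.26 for Hba-x and 18.61 against 12.93 for Hbb-y. The stage named myeloid thus held abundant embryonic erythroid RNA.

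Glycolysis turns glucose into pyruvate in the cytoplasm, and cells that rely on it export the resulting lactate. Under low oxygen the α subunits of the hypoxia-inducible factors (HIFs) escape the prolyl hydroxylases that otherwise mark them for degradation, enter the nucleus and switch on genes of glucose uptake, glycolysis, mitophagy and oxygen sensing. HIF control acts mostly on the protein, so that mRNA of a HIF subunit is not a measure of HIF activity. Hif1a is widely expressed, while Epas1, which encodes HIF-2α, is best known in endothelium.

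HIFs bind a short core within the hypoxia response element, and RUNX proteins bind another, and both cores were looked up as letters in the 250 bases before the transcription start in RefSeq promoters (GRCm38.p6). The motifs searched were ACGTG and GCGTG, which cover the HIF core, and TGTGGT for RUNX, on both strands. CACGTG holds ACGTG on both strands, as overlapping matches. Windows were found for 31 of the 35 members, 44 in all since several genes have more than 1 start, and none was found for Slc2a3, Epas1, Bnip3l and Ndrg1. ACGTG was in 22 of the 44 windows (50%) compared with 16.6% of all 32851 windows, and GCGTG in 24 (54.5%) compared with 28.2%. At least 1 of these 2 cores was in 36 windows (81.8%) compared with 38.6%. TGTGGT was in 5 windows (11.4%) compared with 14.05%. The windows of the members were richer in G and C, with a median of 62.2% compared with 52.4%, and its part in these shares was not tested. These are letters in a window and not bound sites.

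The windows of 3 members that rose with Dox and of the 2 that fell are shown 5′ to 3′, from 250 bases before the start up to the start. Matches to any of the 3 motifs on either strand are in capitals. These 5 are the members called with Dox that had a window. Epas1, Ndrg1 and Bnip3l were also called but had none. Aldoc is shown at the more upstream of its starts.
Slc16a3, chr11:120948817-120949066, plus strand: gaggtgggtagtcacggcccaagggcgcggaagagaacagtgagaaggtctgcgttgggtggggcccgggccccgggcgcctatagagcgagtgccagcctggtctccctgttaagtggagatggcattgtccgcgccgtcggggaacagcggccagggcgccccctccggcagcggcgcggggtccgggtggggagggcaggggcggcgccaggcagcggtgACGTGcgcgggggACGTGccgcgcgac
Aldoc, chr11:78322823-78323072, plus strand: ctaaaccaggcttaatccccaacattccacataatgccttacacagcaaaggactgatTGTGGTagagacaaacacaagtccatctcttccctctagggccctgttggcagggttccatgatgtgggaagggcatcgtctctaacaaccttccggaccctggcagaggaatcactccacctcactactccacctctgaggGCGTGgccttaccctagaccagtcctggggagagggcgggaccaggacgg
Bnip3, chr7:138909507-138909756, minus strand: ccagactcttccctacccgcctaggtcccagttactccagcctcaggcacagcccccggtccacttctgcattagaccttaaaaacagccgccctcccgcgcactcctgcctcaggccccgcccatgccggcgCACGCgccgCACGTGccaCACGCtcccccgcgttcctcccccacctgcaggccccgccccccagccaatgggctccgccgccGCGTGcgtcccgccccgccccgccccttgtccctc
Egln3, chr12:54203875-54204124, minus strand: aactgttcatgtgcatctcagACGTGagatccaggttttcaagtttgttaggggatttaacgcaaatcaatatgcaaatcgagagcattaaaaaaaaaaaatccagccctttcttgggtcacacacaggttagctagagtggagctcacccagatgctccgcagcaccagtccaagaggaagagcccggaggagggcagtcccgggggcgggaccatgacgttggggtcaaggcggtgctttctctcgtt
Ldhb, chr6:142507958-142508207, minus strand: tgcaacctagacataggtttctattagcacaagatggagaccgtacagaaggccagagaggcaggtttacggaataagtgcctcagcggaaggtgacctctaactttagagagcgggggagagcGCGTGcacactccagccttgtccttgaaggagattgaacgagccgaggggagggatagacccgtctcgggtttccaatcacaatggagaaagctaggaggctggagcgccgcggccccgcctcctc
The Slc16a3 window held 2 matches to ACGTG close to the start, and the Bnip3 window held 2 overlapping matches to ACGTG and 3 to GCGTG. Egln3, which fell, held 1 ACGTG far from the start, and Ldhb, which also fell, 1 GCGTG. Among these windows TGTGGT was found in that of Aldoc, while the window at the other start of Aldoc, not shown, held none. Genes that rose and genes that fell thus both held HIF core letters.

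In HE, Dox raised 5 members and lowered 2, together 7 of 35 (20.0%), where 7.09% of all genes tested were called (4.70% raised and 2.39% lowered). Those raised were Slc16a3, Ndrg1, Aldoc, Epas1 and Bnip3, and those lowered Egln3 and Ldhb. In HE2, 5 of 35 were called (14.3%, with 7.18% of all genes called, 5.11% raised and 2.07% lowered): Slc16a3, Epas1 and Aldoc rose again, and Egln3 and Ldhb fell again. Progenitors had 2 raised members, Epas1 and Bnip3l (5.71%, with 3.75% of all genes called, 3.05% raised and 0.704% lowered), and myeloid progenitors also 2, Epas1 and Ndrg1 (5.71%, with 6.31% of all genes called, 5.12% raised and 1.18% lowered). Epas1 was the member raised in all 4 stages, and 27 members were called with Dox in none. The median log2 change over the 35 members was 0.16, 0.070, -0.020 and -0.11 in the 4 stages, from HE to myeloid progenitors, beside -0.0062, -0.030, -0.039 and -0.019 over all genes.

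**Figure D1:**
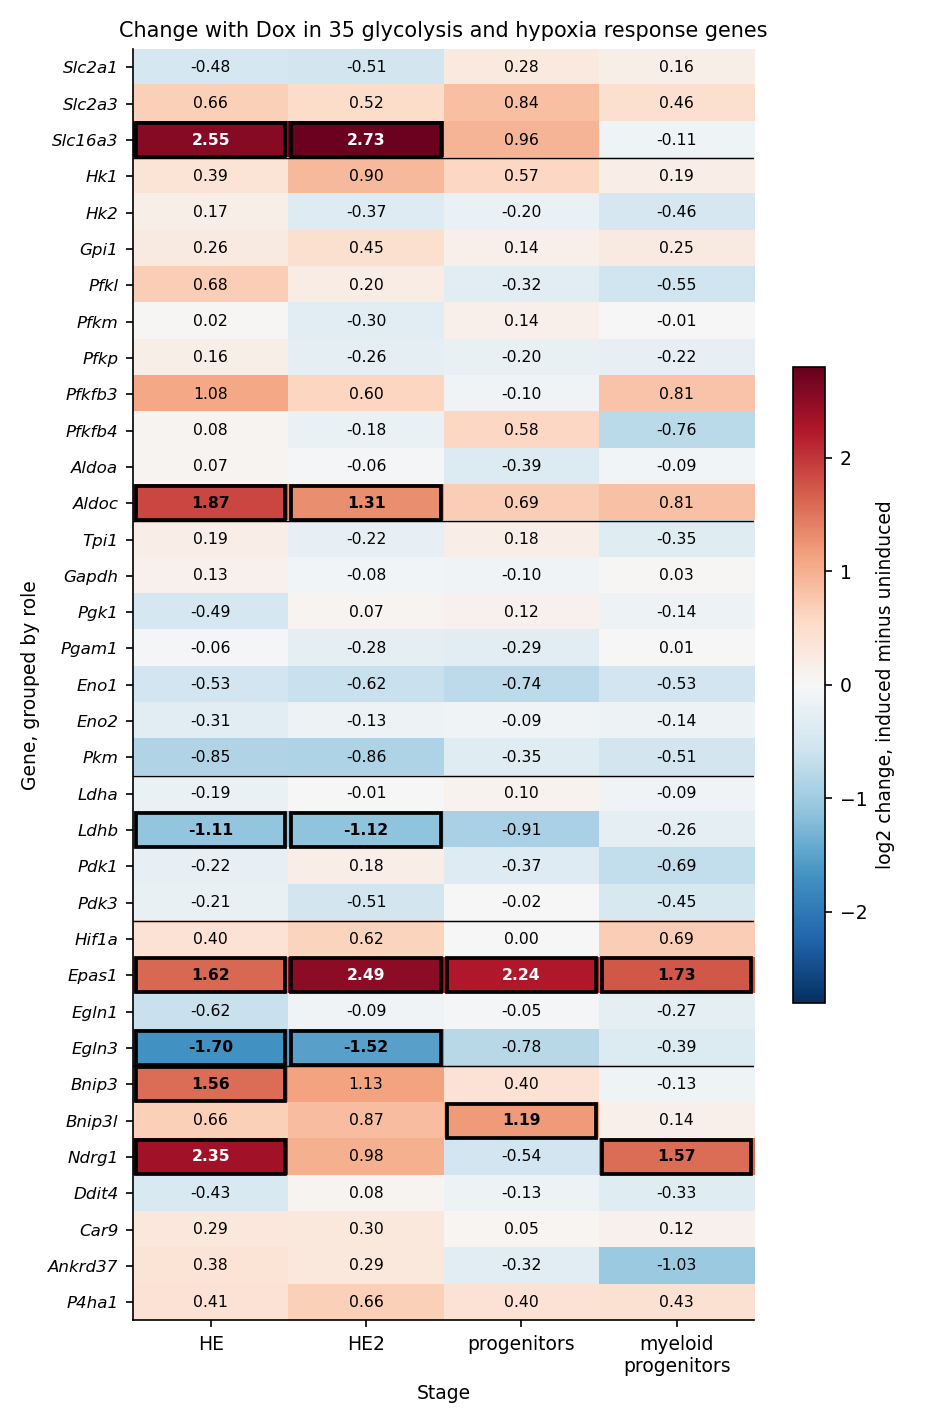
Log2 change with Dox (induced minus uninduced, colour and number) of each of the 35 members (vertical axis, grouped by role) in each stage (horizontal axis), with calls boxed. The 16 boxes fall on 8 genes, 7 of them called in HE, and Epas1 is boxed in every column.

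**Figure D2:**
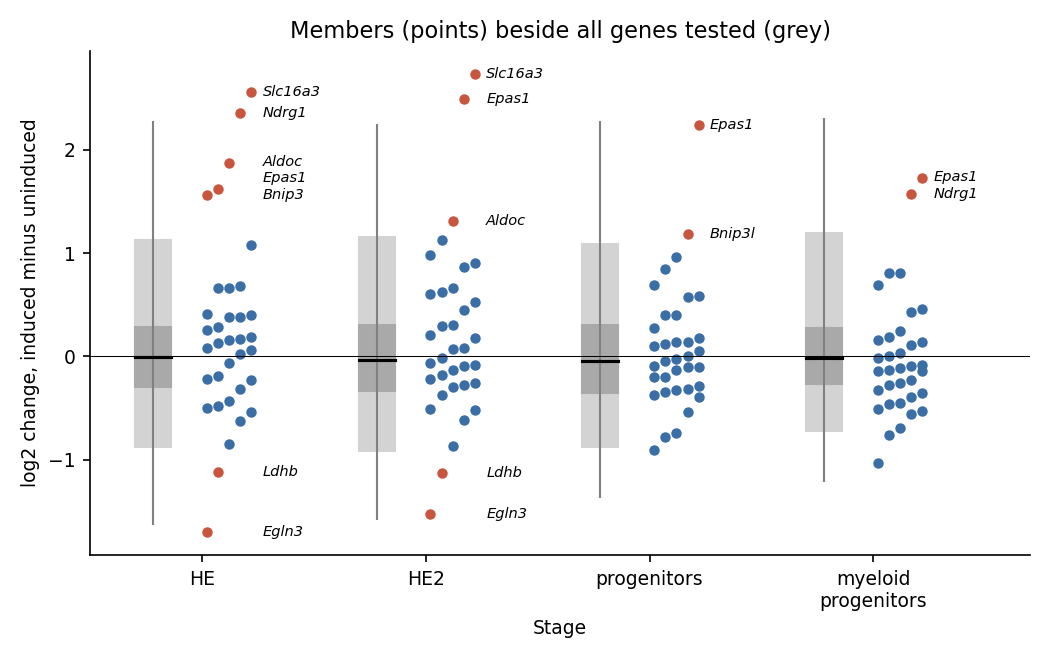
Log2 change with Dox (vertical axis) by stage (horizontal axis) of the 35 members (points, red where called, side by side only for legibility) beside all 15203 genes tested (grey, with the median as a line, the 25th to 75th percentile in dark grey, the 5th to 95th in light grey and the 1st to 99th as a thin line). Slc16a3 and Ndrg1 in HE lie above the 99th percentile of 2.27, and Slc16a3 and Epas1 in HE2 above that of 2.24. Egln3 in HE lies below the 1st percentile of -1.62, while most members lie in the range of the other genes.

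Markers of other cell types moved with Dox on the same arrays, and their part in the changes of the members was not tested. The embryonic globin gene Hbb-y was at 11.16 to 11.31 on uninduced and 13.82 to 15.41 on induced HE arrays, at 11.54 to 12.38 and 15.81 to 16.50 in HE2, and at 12.91 to 12.96 and 17.09 to 17.73 in progenitors. It rose by 3.23, 4.34 and 4.48 in these stages, and Hbb-bh1, another embryonic globin gene, by 2.69, 1.903 and 1.21, all called. Neither was called in myeloid progenitors, and Hba-x was called in no stage. Uninduced myeloid progenitors were already at 18.73 for Hbb-bh1 on all 3 arrays and at 18.55 to 18.65 for Hbb-y. These values are near the top of the scale, so that a rise could not be seen there. Near-identical globin copies cannot be told apart here.

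Array means over the blood commitment genes Itga2b, Kit, Runx1 and Myb were lower with Dox without overlap in HE (10.76 to 11.09 against 9.79 to 10.31), HE2 (12.39 to 12.89 against 11.43 to 11.99) and progenitors (13.21 to 13.30 against 12.80 to 13.20). In HE the genes were split. Itga2b went from 10.70 to 7.49 and Myb from 9.46 to 8.52, while Kit went from 12.70 to 12.95 and Runx1 from 10.75 to 11.50. Array means over 6 myeloid genes were lower without overlap in HE2 (8.86 to 9.26 against 7.60 to 8.12), progenitors (10.37 to 10.66 against 9.04 to 9.17) and myeloid progenitors (9.46 to 9.98 against 8.91 to 9.12). The mean of 5 genes of cell division (Mki67, Top2a, Ccnb1, Cdk1 and Birc5) was lower in HE (13.86 to 14.10 against 12.94 to 13.62), HE2 (14.19 to 14.44 against 13.63 to 14.03) and myeloid progenitors (14.74 to 14.77 against 14.17 to 14.38). That of Acta2, Tagln, Cnn1, Tnnt2 and Myh6, genes of smooth and cardiac muscle, was lower in HE (11.77 to 12.58 against 10.63 to 11.20) and HE2 (10.34 to 11.69 against 9.51 to 9.78) and higher in myeloid progenitors (8.02 to 8.56 against 8.84 to 9.12). In the stages not named for a list, its ranges overlapped.

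Among the 3 genes of glucose and lactate transport, Slc16a3 changed with Dox. It encodes MCT4, a transporter that exports lactate from glycolytic cells. In HE the uninduced arrays had log2 intensities of 13.51, 13.03 and 11.21 and the induced arrays 15.18, 15.63 and 14.60. In HE2 the uninduced arrays had 12.85, 12.19 and 10.56 and the induced arrays 15.02, 14.08 and 14.71. The groups did not overlap in either stage, but uninduced array 3 lay well below the other 2 in both, and both of these arrays were on slide 2. In HE the rise was 2.55, or 5.87-fold (SE 0.57, adjusted P = 0.00431). The rise in HE2 was 2.73, or 6.65-fold (SE 0.57, adjusted P = 0.00255). Within slide 1 the differences were 1.91 in HE and 2.50 in HE2, and within slide 2, where uninduced array 3 was the only control, 3.90 and 3.83. Without uninduced array 3 the rise was 1.87 in HE and 2.08 in HE2, past 2-fold and short of the P threshold. It was also short of it without induced array 1 in HE or HE2 (2.53 in each), and without induced array 2 in HE (2.31). The second probe of Slc16a3 rose by 2.67 and 2.55.

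Induced progenitors had 14.19 and 13.08 for Slc16a3 against 13.21 and 12.15 in uninduced progenitors, overlapping ranges with a difference of 0.96 (95% interval -0.51 to 2.43). In myeloid progenitors, uninduced arrays at 15.04, 14.08 and 14.40 were as high as the induced ones at 14.54, 14.32 and 14.33, with a difference of -0.11 (95% interval -1.31 to 1.09). The response in HE and in myeloid progenitors differed by -2.67 (SE 0.81, adjusted P = 0.0559), short of the P threshold, and was past it with slide as a block (-3.05). The glucose transporters Slc2a1 (GLUT1) and Slc2a3 (GLUT3) were not called in any stage. Slc2a1 was between -0.51 and 0.28, while Slc2a3 was higher with Dox in each stage, by 0.46 to 0.84.

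The 10 members from hexokinase to aldolase, the steps that trap glucose and split it into triose phosphates, held 1 responder. Aldoc encodes aldolase C, an isozyme best known in brain. Its uninduced HE arrays had 8.91, 9.41 and 9.36 and the induced ones 10.75, 11.49 and 11.05. In HE2 the values were 9.28, 9.46 and 9.20 without Dox and 10.45, 10.27 and 11.15 with it. All induced arrays lay above all uninduced arrays in both stages. Aldoc rose by 1.87 in HE (SE 0.30, adjusted P = 0.000221), 3.65-fold, and by 1.31 in HE2 (SE 0.30, adjusted P = 0.00461), 2.48-fold, with 1.59 and 1.91 within slides 1 and 2 in HE and 1.08 and 1.51 in HE2. The rise in HE2 was short of the P threshold without uninduced array 1 (1.29), uninduced array 3 (1.26) or induced array 3 (1.05).

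Progenitors had 8.95 and 9.41 for Aldoc without Dox and 9.68 and 10.06 with it, without overlap, and the difference of 0.69 (SE 0.36, adjusted P = 0.303) did not pass. In myeloid progenitors the uninduced arrays had 10.79, 9.57 and 9.65 and the induced ones 10.97, 10.80 and 10.67, a difference of 0.81 (SE 0.30, adjusted P = 0.0805). Uninduced array 1 was level with the induced arrays there, and without it the difference was 1.20, past the threshold. Aldoa, the main aldolase of most cells, stayed between -0.39 and 0.067 on the log2 scale of the Dox difference, with 95% intervals from -0.92 to 0.50 over the 4 stages. The Aldoa signal was near the top of the scale, so that a rise may be understated.

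Pfkfb3 makes fructose 2,6-bisphosphate, a strong activator of phosphofructokinase. It was 2.11-fold higher in induced HE, by 1.08 (SE 0.30, adjusted P = 0.0183), short of the P threshold, with uninduced arrays at 10.11, 10.45 and 9.89 and induced ones at 11.53, 11.35 and 10.81. It was past the threshold with slide as a block (1.21). In myeloid progenitors it differed by 0.81, and by 1.19 without uninduced array 1, past the threshold. The hexokinases Hk1 and Hk2, the isomerase Gpi1, the phosphofructokinase subunits Pfkl, Pfkm and Pfkp and the second regulator Pfkfb4 were not called with Dox in any stage. The largest difference among them in HE and HE2 was that of Hk1 in HE2, at 0.90 (SE 0.24, adjusted P = 0.0144), which passed without induced array 1 (1.06).

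Of the 7 members from triose phosphate isomerase to pyruvate kinase, 0 were called with Dox by limma in each stage, with 1 at an unadjusted P under 0.05 in each. Tpi1, Gapdh, Pgk1, Pgam1, Eno1, Eno2 and Pkm carry the steps that yield ATP and pyruvate. Their differences ran from -0.85 to 0.19 in HE and from -0.86 to 0.070 in HE2. Progenitors gave -0.74 to 0.18 and myeloid progenitors -0.53 to 0.032. Eno1, the main enolase, was lower with Dox in each stage, by -0.53, -0.62, -0.74 and -0.53, with adjusted P of 0.0954 to 0.185. Pkm, a pyruvate kinase gene, varied widely between arrays of a group, with 14.40, 13.28 and 14.04 in induced HE and 15.06, 14.35 and 12.48 in induced HE2, so that its differences of -0.85 and -0.86 had 95% intervals of -1.92 to 0.23 and -1.94 to 0.21. Gapdh, often taken as a reference gene, stayed within 0.13 of no change in all stages, with 95% intervals from -0.51 to 0.46. Gapdh was also near the top of the scale, so that a rise may be understated. It had 7 probes, and signal from its many processed copies cannot be told apart here.

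Of the 4 members that set the fate of pyruvate, Ldhb fell with Dox and the others were not called. Ldha and Ldhb encode the 2 lactate dehydrogenase subunits, of which Ldha is the one induced by HIF and favoured in glycolytic cells. Ldhb had 9.93, 10.05 and 9.75 in uninduced HE and 8.69, 9.06 and 8.63 in induced HE. In HE2 it had 9.96, 9.94 and 9.97 without Dox and 8.95, 8.67 and 8.89 with it. The groups were far apart compared with their spread. The falls were -1.11 (SE 0.17, adjusted P = 0.000142) and -1.12 (SE 0.17, adjusted P = 0.000163), 2.16-fold and 2.18-fold. Within slides they were -1.30 and -0.90 in HE and -1.002 and -1.19 in HE2, on slides 1 and 2.

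Progenitors had 10.41 and 10.12 for Ldhb without Dox and 9.57 and 9.14 with it. The difference of -0.91 (SE 0.21, adjusted P = 0.0123) passed the P threshold and was 1.87-fold, short of the 2-fold one, and was past both without uninduced array 2 (-1.05) or induced array 1 (-1.12). In myeloid progenitors, where the uninduced arrays were already at 9.14, 9.10 and 8.70, the induced ones had 8.81, 8.70 and 8.66, and the ranges overlapped. The difference there was -0.26 (95% interval -0.62 to 0.10). The response in HE and in myeloid progenitors differed by 0.85 (SE 0.24, adjusted P = 0.0358), short of the threshold. Ldha changed little beside it, with Dox differences of -0.19, -0.014, 0.10 and -0.091 and 95% intervals from -0.51 to 0.50. The Ldha signal was near the top of the scale, so that a rise may be understated. Pdk1 and Pdk3, kinases that keep pyruvate out of the citric acid cycle, were between -0.69 and 0.18.

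**Figure D3:**
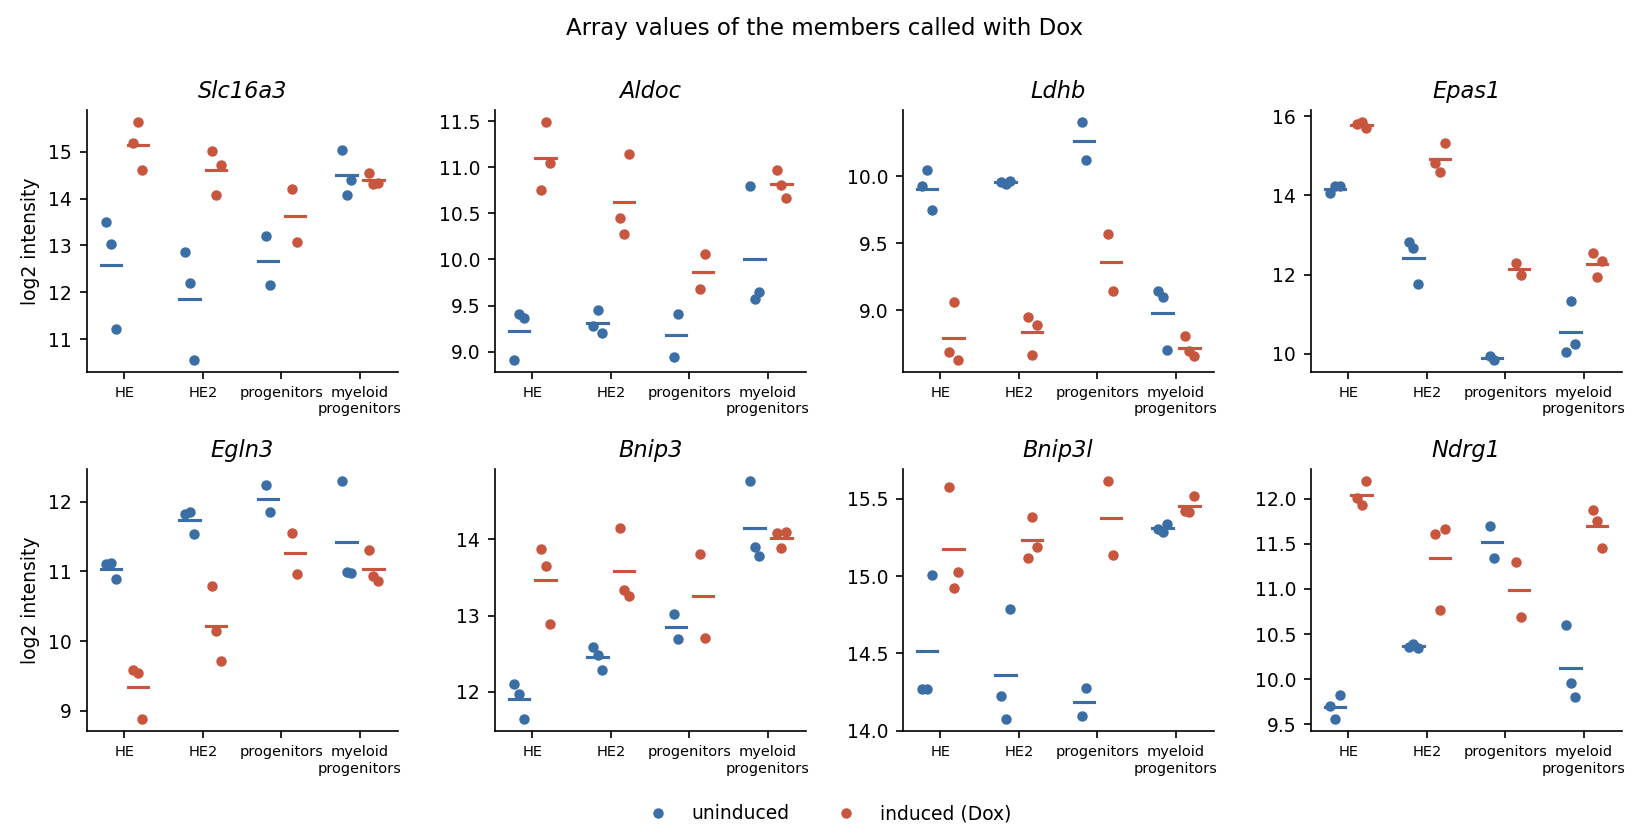
Log2 intensity (vertical axis) on each array (points) of the 8 members called with Dox in at least 1 stage, by stage (horizontal axis), without Dox in blue and with Dox in red, with lines at group means. Ldhb and Egln3 lie lower and Slc16a3 and Aldoc higher on every induced than on every uninduced array of HE and HE2, and uninduced myeloid progenitor array 1 stands apart from the other 2 in Aldoc, Egln3 and Bnip3.

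The 4 genes of HIF subunits and oxygen sensors held the changes with the widest reach. Epas1 had 14.06, 14.23 and 14.23 in uninduced HE and 15.81, 15.85 and 15.71 in induced HE. In HE2 it had 12.82, 12.68 and 11.76 without Dox and 14.83, 14.59 and 15.33 with it. In progenitors it had 9.94 and 9.85 without Dox and 12.28 and 11.98 with it. In myeloid progenitors it had 10.05, 11.33 and 10.25 without Dox and 12.55, 11.93 and 12.34 with it. Induced arrays lay above uninduced arrays in each stage. In HE the rise was 1.62, or 3.07-fold (SE 0.30, adjusted P = 0.0011). It was 2.49, or 5.63-fold, for HE2 (SE 0.30, adjusted P = 2.26e-05) and 2.24, or 4.73-fold, for progenitors (SE 0.37, adjusted P = 0.00103). Myeloid progenitors showed 1.73, or 3.32-fold (SE 0.30, adjusted P = 0.000639), and 1.70, still called, without induced array 3. Within slides 1 and 2 they were 1.67 and 1.55 in HE and 2.08 and 3.20 in HE2. Between stages the size of the rise did not differ past the threshold, with a difference of 0.88 between HE and HE2 (95% interval -0.028 to 1.78), and -0.25 between HE2 and progenitors.

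The 3 probes matched to Epas1 disagreed. A second probe rose by 1.52, 2.06, 1.56 and 1.29 in the 4 stages and was called in each. The third differed by 0.26, -0.017, -0.38 and -0.40 and was called in none. Averaged over the probes, the rise in progenitors was 1.14 and in myeloid progenitors 0.87, both short of the threshold.

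**Figure D4:**
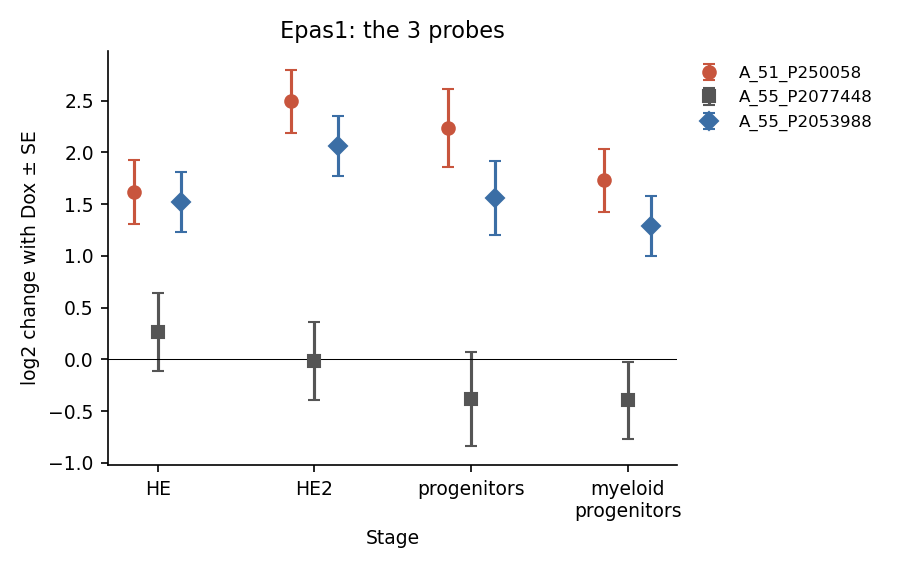
Log2 change with Dox (vertical axis, ± SE) of the 3 array probes matched to Epas1 in each stage (horizontal axis). The probe used here (red) and the second probe (blue) were called in all 4 stages, and the third (grey), between -0.40 and 0.26, in none.

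Of the endothelial markers Tek, Cdh5, Pecam1 and Kdr, none was called with Dox in HE, HE2 or progenitors, where Epas1 was, and Tek, Cdh5 and Kdr rose in myeloid progenitors. Short of the threshold, all of these markers had higher means with Dox in HE2 and progenitors. Tek went from 10.67 to 12.40 in HE2 and from 8.66 to 11.11 in progenitors. Kdr went from 13.94 to 15.06 and from 12.75 to 14.09. In HE, Tek and Kdr were higher and Cdh5 and Pecam1 lower. Averaged over these markers, log2 intensity was 12.32 to 14.20 on uninduced and 12.55 to 13.85 on induced HE arrays, 11.44 to 12.53 and 12.50 to 13.50 in HE2, 10.91 to 10.98 and 11.92 to 12.26 in progenitors, and 10.19 to 10.69 and 12.13 to 12.50 in myeloid progenitors. These ranges overlapped in HE and HE2 and were apart in both progenitor stages. Whether more endothelial cells or more RNA per cell gave the higher Epas1 value cannot be told apart in bulk RNA, and the part of these genes in the change was not tested.

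Egln3 encodes PHD3, an oxygen-sensing prolyl hydroxylase that is itself a classical HIF target, and it fell in HE and HE2. Slc16a3 and Aldoc rose in both of these stages, and Bnip3 and Ndrg1 in HE. Other hypoxia-inducible members, among them Ldha, Ddit4 and Car9, were not called, but Car9 was near the filter and Ldha near the top of the scale. Egln3 had 11.11, 11.11 and 10.89 in uninduced HE and 9.59, 9.54 and 8.88 in induced HE. In HE2 it had 11.83, 11.85 and 11.53 without Dox and 10.79, 10.14 and 9.71 with it. Every induced array was below every uninduced array in both stages. The falls were -1.70 (SE 0.32, adjusted P = 0.00124), 3.25-fold, and -1.52 (SE 0.32, adjusted P = 0.00303), 2.87-fold, with -1.52 and -1.68 within slides 1 and 2 in HE and -1.04 and -1.60 in HE2. The second probe fell by -1.64 and -1.69. The fall in HE2 was short of the P threshold without uninduced array 1 (-1.47), uninduced array 2 (-1.46) or induced array 3 (-1.27).

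Progenitors had 12.23 and 11.85 for Egln3 without Dox and 11.55 and 10.97 with it, a difference of -0.78 (95% interval -1.62 to 0.06). In myeloid progenitors the values were 12.29, 10.99 and 10.98 without Dox and 11.31, 10.93 and 10.86 with it, and apart from the high uninduced array 1 the groups were level. The difference was -0.39 (95% interval -1.07 to 0.29), and the response differed from that in HE by 1.31 (adjusted P = 0.110), or by 1.75 without uninduced array 1, past the threshold. Hif1a was not called with Dox in any stage, at 0.40, 0.62, 0.0036 and 0.69 from HE to myeloid progenitors. Egln1, which encodes the main oxygen sensor PHD2, was dim, at 5.48 to 8.18 over the 22 arrays, and its 95% intervals reached past 2-fold in every stage.

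The 7 other hypoxia-inducible genes include Bnip3 and Bnip3l, receptors that target mitochondria for mitophagy. Bnip3 had 12.11, 11.97 and 11.64 in uninduced HE and 13.87, 13.65 and 12.89 in induced HE. The groups did not overlap, and Bnip3 rose by 1.56 (SE 0.32, adjusted P = 0.00227), 2.96-fold, with 1.83 and 1.63 within slides 1 and 2. It was just short of the P threshold without uninduced array 3 (1.43) and short of it without induced array 1 (1.36). In HE2 the values were 12.59, 12.48 and 12.29 without Dox and 14.15, 13.34 and 13.25 with it. This difference of 1.13 (SE 0.32, adjusted P = 0.0207) was past 2-fold and short of the P threshold, while a second probe was called at 1.36, and the first with slide as a block (1.29). In progenitors (13.02 and 12.69 against 13.81 and 12.70) and in myeloid progenitors (14.76, 13.90 and 13.77 against 14.08, 13.88 and 14.09) the groups overlapped. The response in HE and in myeloid progenitors differed by -1.69 (SE 0.45, adjusted P = 0.0289), short of the P threshold, and was past it with slide as a block (-1.85).

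Bnip3l, which clears mitochondria from maturing red cells, had 14.10 and 14.28 in uninduced and 15.61 and 15.13 in induced progenitors. It rose there by 1.19 (SE 0.28, adjusted P = 0.0148), 2.28-fold, without overlap. In HE it had 14.27, 14.27 and 15.005 without Dox and 15.58, 14.92 and 15.02 with it, and the groups overlapped. In HE2 it had 14.22, 14.08 and 14.79 without Dox and 15.12, 15.38 and 15.19 with it, a difference of 0.87 (1.82-fold, SE 0.23, adjusted P = 0.0125) that passed without uninduced array 3 (1.08). In myeloid progenitors the 6 values were between 15.28 and 15.52, a difference of 0.14. The rise in progenitors did not pass in 3 of the 4 fits that left out an array: it was 1.098 without uninduced array 1, 1.28 without uninduced array 2 and 0.95 without induced array 1. Its 4 probes differed by 0.96 to 1.51, of which 3 were called.

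Ndrg1, a stress-responsive gene induced by hypoxia and by differentiation, gave the most uneven response. It had 9.70, 9.56 and 9.82 in uninduced HE and 12.01, 11.93 and 12.19 in induced HE. In HE2 it had 10.36, 10.39 and 10.34 without Dox and 11.61, 10.77 and 11.67 with it. In progenitors the order turned, with 11.70 and 11.35 without Dox and 11.29 and 10.68 with it. In myeloid progenitors it had 10.60, 9.96 and 9.81 without Dox and 11.87, 11.75 and 11.46 with it. Induced arrays were higher without overlap in 3 stages and lower in progenitors. Ndrg1 rose by 2.35 in HE (SE 0.24, adjusted P = 2.73e-06), 5.10-fold, and by 1.57 in myeloid progenitors (SE 0.24, adjusted P = 0.000183), 2.97-fold, or 1.69, still called, without induced array 3. The difference in HE2 was 0.98 (SE 0.24, adjusted P = 0.00859), at 1.98-fold just short of 2-fold, and it was called without induced array 2 (1.27) and with slide as a block (1.02), and in progenitors -0.54 (95% interval -1.16 to 0.09).

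The response of Ndrg1 was smaller in HE2 than in HE by -1.37 (SE 0.34, adjusted P = 0.0682), and smaller in progenitors than in HE2 by -1.52 (SE 0.38, adjusted P = 0.152). Both passed the unadjusted threshold, which was passed by 1.35% and 0.638% of all genes. The first was short of it, at -1.37, with the replicate block numbered as in the deposited log2 values. The second was short of it with slide (-1.29) or scan day (-1.22) as a block. The 2 terms share the HE2 arrays. For HE against myeloid progenitors limma called 0 members, with 9 at an unadjusted P under 0.05 and 2, Bnip3 and Ldhb, at an adjusted P of at most 0.05, where 4.71% of all genes were called.

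The remaining hypoxia-inducible members, Ddit4, an inhibitor of mTORC1, Car9, a carbonic anhydrase of the cell surface, Ankrd37 and P4ha1, a collagen prolyl hydroxylase, were not called with Dox. Car9, known as a close marker of HIF activity, was near the filter, at 5.42 to 6.51 over the 22 arrays, and differed by 0.051 to 0.30. P4ha1 was higher with Dox in each stage, by 0.40 to 0.66, with an adjusted P of 0.0367 in HE2. Ankrd37 differed by -1.03 in myeloid progenitors (adjusted P = 0.138), where uninduced array 1 had 12.23 and the other 5 arrays 10.16 to 10.90. That array was the highest of its group for 26 of the 35 members.

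Over the 35 members, the 95% interval of the Dox difference lay within 2-fold either way for 17, 15, 14 and 17 in the 4 stages, from HE to myeloid progenitors, and for 10 in all of them. These 10 were Gpi1, Pfkm, Pfkp, Aldoa, Gapdh, Pgam1, Eno2, Ldha, Pdk3 and Car9, but Car9 was past the filter on 1 array and its interval sets no bound on a change. Aldoa, Gapdh and Ldha were near the top of the scale, where a rise may be understated, so that their intervals bound a rise less firmly. For members not called and outside these 10, the interval reached past 2-fold in at least 1 stage, and a change of that size could not be told from none.

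Other genes of these pathways, from lists of 25 further glycolysis genes, 34 further HIF pathway genes, 22 genes of the citric acid cycle and pyruvate dehydrogenase and 7 of the pentose phosphate pathway, were tested with Dox, and their counts stand beside 7.09, 7.18, 3.75 and 6.31% of all genes called from HE to myeloid progenitors. Of 21 further glycolysis genes tested, 1 was called in each stage (4.76%), and it was Slc2a6, a glucose transporter family member. It rose by 1.13 in HE and fell by -1.52, -1.57 and -1.80 in the 3 later stages, in order, and the responses in HE and HE2 differed by -2.65 (adjusted P = 0.00523). Of 29 further HIF pathway genes, the numbers that rose were 2 (6.90%), 1 (3.45%) and 2 (6.90%) in the early stages and 0 in myeloid progenitors, where 8 had an unadjusted P under 0.05. Kdm3a, a histone demethylase induced by hypoxia, rose by 1.04, 1.24 and 1.03 in the 3 early stages. Hif3a rose by 1.31 in HE and Vegfa by 1.16 in progenitors. The citric acid cycle list had 0 of 22 genes called in each stage, with 5, 5, 1 and 2 at an unadjusted P under 0.05 from HE to myeloid progenitors. Of the 7 pentose phosphate genes, Pgls fell by -1.43 in HE2 and Rpia by -1.20 in myeloid progenitors.

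Between stages, the members were compared separately without and with Dox, and these comparisons share arrays with those described above. From HE to HE2 without Dox, Epas1 fell by -1.75 (SE 0.30, adjusted P = 0.00102), 3.37-fold, and was the only member called of 35 (5.05% of all genes). With Dox limma called 0 members, with 6 at an unadjusted P under 0.05, where 3.10% of all genes were called, and Epas1 differed by -0.88. From HE2 to progenitors without Dox, Epas1 fell further by -2.53 (SE 0.34, adjusted P = 6.61e-05), 5.77-fold, and Ndrg1 rose by 1.16 (SE 0.27, adjusted P = 0.00959), 2.24-fold, so that 2 of 35 were called (5.40% of all genes). The rise of Ndrg1 did not pass in any of the 5 fits that left out 1 array, at 0.99 to 1.34. With Dox, 4 of 35 were called on this step (7.30% of all genes). Epas1 fell by -2.78 and P4ha1 by -1.13, and Pfkfb4, whose product regulates phosphofructokinase, rose by 1.32 and Pdk3 by 1.02. Of these 4, only Epas1 was called with slide as a block or without induced progenitor array 2, which lay on slide 3.

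From progenitors to myeloid progenitors, nearly all arrays changed slide and scan day together with the stage. Embryonic globin RNA was also far higher in myeloid progenitors, and the part of erythroid cells in the changes on this step was not tested. Without Dox, 6 of 35 members were called (13.9% of all genes), and with Dox 2 (7.37%). Pfkfb4 had 11.08 and 11.19 in uninduced progenitors and 13.46, 13.83 and 13.93 in uninduced myeloid progenitors, and 11.37 and 12.07 against 12.47, 13.43 and 13.06 with Dox. It rose by 2.61 (SE 0.31, adjusted P = 6.56e-06) without Dox and by 1.27 (SE 0.31, adjusted P = 0.00827) with it. Eno2, an enolase best known in neurons, had 6.89 and 6.85 against 8.55, 9.62 and 8.95 without Dox, and 6.74 and 6.81 against 8.45, 8.99 and 9.26 with Dox. It rose by 2.17 (SE 0.32, adjusted P = 5.99e-05) and 2.13 (SE 0.32, adjusted P = 0.000143). Eno2 was thus well apart between the stages under either condition, and Pfkfb4 without Dox. With Dox the Pfkfb4 ranges were close, and its call was kept in 10 of 20 alternatives other than the 2-fold rule. It was lost without induced myeloid progenitor array 2 (1.05) or 3 (1.23). On slide 3 itself, the additional uninduced progenitor array had 11.50 for Pfkfb4 and 6.07 for Eno2, below the myeloid progenitors beside it.

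Without Dox, Bnip3l rose by 1.12 and Ldhb fell by -1.28, Ndrg1 by -1.40 and Hif1a by -1.26 on this step. The Hif1a values were 11.60 and 11.70 in uninduced progenitors and 10.48, 10.47 and 10.22 in uninduced myeloid progenitors. The additional progenitor array on slide 3 had 10.52, level with the myeloid progenitors, and with slide as a block the difference was 0.072. It was -0.88 with the additional array in the fit. On that array Ldhb was 10.28 and Ndrg1 11.36, above all uninduced myeloid progenitors, and Bnip3l 14.07, below them. With slide as a block none of the 6 passed: Pfkfb4 differed by 2.07, Eno2 by 2.08, Bnip3l by 1.71, Ldhb by -0.90 and Ndrg1 by -0.84. The 2 members called under that block were Bnip3, at 2.16, and Ddit4, at 2.78. Induced progenitors were the only fitted group with arrays both on slide 3 and off it. All block values on this step therefore rest on induced progenitor array 2, which had 10.93 for Ddit4. The additional uninduced progenitor array on slide 3 had 11.49 for Ddit4 and 12.28 for Bnip3, below all uninduced myeloid progenitors. Bnip3l also did not pass in any of the 5 fits that left out 1 array (1.03 to 1.21). With Dox, Pfkfb4 was 0.92 without induced progenitor array 1 and was short of the threshold.

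**Figure D5:**
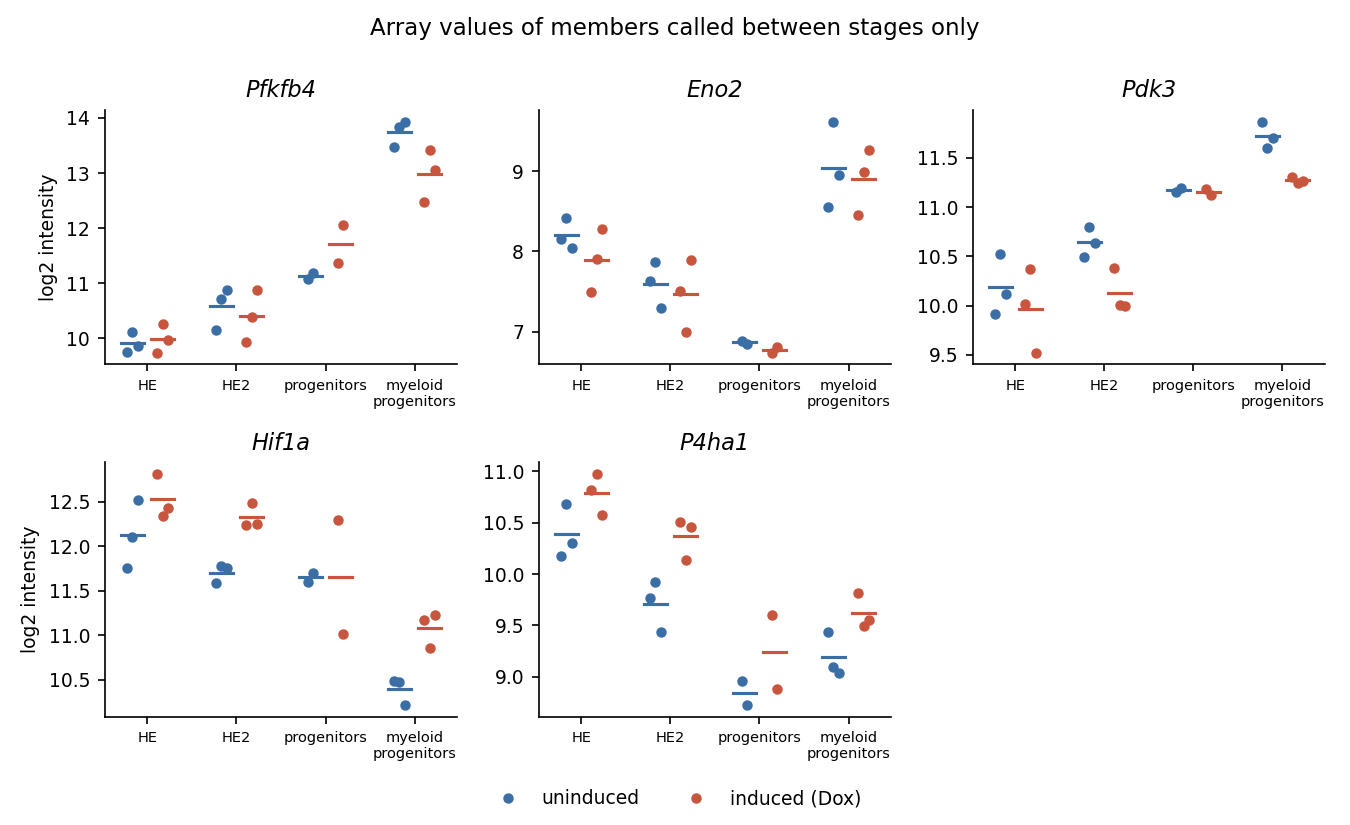
Log2 intensity (vertical axis) on each array (points) of the 5 members called between stages and not with Dox, by stage (horizontal axis), without Dox in blue and with Dox in red, with lines at group means. Pfkfb4 and Eno2 are highest in myeloid progenitors under both conditions, and the 2 induced progenitor arrays, which lie on different slides, are far apart for Hif1a at 12.30 and 11.01.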

How the data were processed

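Gene expression was measured in 1 colour on Agilent mouse arrays. The authors deposited scanner intensity values per spot, read by Feature Extraction (10.7.3.1 in the file headers, 10.7.1.1 in the submitters' processing notes), not normalized. A deposited table of log2 values, which the authors had background corrected and quantile normalized, served as an alternative. In these, 6 columns (induced arrays 2 and 3 of HE, HE2 and myeloid progenitors) matched the scanner intensities of each other's array, and replicate numbers here follow the scanner files. Group means do not depend on it. Columns of other samples numbered 0.

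Median spot intensities were corrected by normexp with an offset of 16 and quantile normalized over 23 arrays, with 3671 control spots left out before and 4423 spots marked as outliers after normalization, and spots of a probe were averaged. Of 55681 probes, 26582 took a symbol by accession from RefSeq genes on GRCm38.p6, used for names only because the array was annotated on another build. The highest-mean probe stood for a gene, and genes of at least 6.5 on 1 array were tested. Group means of 22 arrays were fitted in R 4.3.3 (limma 3.58.1, functions lmFit and eBayes), with 14 residual degrees of freedom, for 13 comparisons. Differences in response are interaction terms. Intervals cover 95%.

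The members and lists were chosen with earlier results of these data known. The genes named are the members, per pathway list and Dox comparison the 2 largest changes past the threshold, and Runx1t1, Tek, Itga2b and Mpo. The 4 pathway lists held 88 genes, of which 86 had a probe. The marker lists were endothelium, blood commitment, myeloid, muscle, pluripotent and cell division genes and embryonic globins, and 1 marker gene is not reported here. Means of pluripotency genes were 6.06 to 7.10 over all groups.

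In simulated data with 200 of 14921 genes changed by 1.5 (log2), the Dox comparisons recovered 88.0, 88.5, 70.5 and 90.5%, ordered from HE to myeloid progenitors. Same-numbered arrays of uninduced HE and HE2, which also shared a slide, deviated from their group means together (r = 0.394, 0.794 and 0.608, across genes). The fit reported here was unpaired, and their numbers served as pairs only in an alternative with the replicate number as a block. With the scanner numbering no other comparison with 3 pairs showed such joint deviation in each. With the deposited numbering, arrays with and without Dox also did in HE2 (0.360, 0.606 and 0.485) and in myeloid progenitors (0.211, 0.123 and 0.261), and which numbering is right is not given in the sources used here. Alternatives covered background, scaling, filters, probes, thresholds, blocks and left-out arrays.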

Additional observations from a re-analysis of the deposited data

Results flagged for a closer look

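The Dox response of Ndrg1 differed between stages. The interaction term was -1.37 on the log2 scale for HE against HE2, and -1.52 for HE2 against progenitors. Both terms passed the unadjusted threshold and not an adjusted P of 0.05. Leaving out any 1 of 12 arrays gave -1.53 to -1.08 for HE against HE2, and the term passed in 2 of these 12 fits. For HE2 against progenitors the range was -1.83 to -1.22 over 10 arrays, and the term passed in 2.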

How the results depend on the processing

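The count of members changed with Dox in HE was within 1.5 times of 7 in all 22 alternatives. Over the 33 calls of a member in a comparison, 602 of 724 values under an alternative kept direction and call, 117 kept the direction alone and 5 turned. Those that turned were Hif1a from progenitors to myeloid progenitors without Dox, at 0.072 with slide and 0.027 with scan day as a block, and the third Epas1 probe with Dox, at -0.017, -0.38 and -0.40 after HE. The probe comparison was chosen after seeing the data, and the causes were not tested. A 2-fold change alone is a looser rule on the same fit, so its values, which are among the 602, had to keep their calls.

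Fitting only the groups compared gave 3 members with Dox in HE2, 1 each in both later stages, 1 from HE2 to progenitors with Dox, 1 from progenitors to myeloid progenitors with Dox, and 0 for the response of HE against HE2 and of HE2 against progenitors, where fewer arrays estimate the spread. Scaling to the 75th percentile gave 1 with Dox in progenitors, 2 from HE2 to progenitors with Dox and 1 from progenitors to myeloid progenitors with Dox. It moved the median of all genes to -0.18 with Dox in progenitors, -0.15 in myeloid progenitors, and -0.24 and -0.19 on the last stage step without and with Dox. Averaging probes gave 1 in progenitors, 1 in myeloid progenitors and 1 on the last step with Dox, as did normalizing the early stages apart for that step (1). A 2-fold change alone gave 4 and 7 from HE2 to progenitors without and with Dox, 11 on the last step without Dox, 2 for HE2 against progenitors and 6 for HE against myeloid progenitors. An adjusted P of at most 0.05 with 2-fold gave 10 on the last step without Dox, 0 for HE against HE2, 0 for HE2 against progenitors and 1 for HE against myeloid progenitors. With slide and with scan day as a block, 1 and 1 were called from HE2 to progenitors with Dox, 2 and 2 on the last step without Dox, 0 and 0 for HE2 against progenitors, and 2 and 1 for HE against myeloid progenitors. On the last step both blocks rest on the induced progenitor arrays, the only fitted group split between slide 3 and the other slides.

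With the replicate number as a block, 1 member was called from HE2 to progenitors without Dox and 1 for HE against myeloid progenitors. For the paired uninduced HE and HE2 arrays it left the count at 1, and with Dox it left 5 in HE2 and 2 in myeloid progenitors under either numbering. With the numbering of the deposited log2 columns, added after seeing the data, the block gave 1 on the last step with Dox and 0 for HE against HE2.

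Leaving out each array in turn gave 5 to 7 members with Dox in HE, 3 to 6 in HE2, 1 to 2 in progenitors and 2 to 4 in myeloid progenitors. It gave 1 to 1 and 0 to 0 from HE to HE2 without and with Dox, 1 to 3 and 1 to 5 from HE2 to progenitors, 4 to 5 and 1 to 3 from progenitors to myeloid progenitors, and 0 to 1 for each of the 3 differences in response. The lone progenitor array left in such a fit was assumed to vary like the other groups. The number of arrays, 2 or 3 a group, limits the precision, most of all in progenitors.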

Other observations

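The additional uninduced progenitor array differed from uninduced progenitor arrays 1 and 2 by a mean of 0.49 and 0.32 (log2, absolute) over the members, and from the induced arrays by 0.74 and 0.55. It had 9.51 for Epas1, 11.88 for Egln3 and 9.18 for Aldoc, on the uninduced side for each. Among the arrays of its group, induced HE array 3 was lowest for 21 of the 35 members, uninduced HE2 array 3 lowest for 20 and induced HE2 array 1 highest for 21.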
